A study of Mus musculus with 48 samples.

Results

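The genes described are 7 matrix metalloproteinases (Mmp2, Mmp3, Mmp9, Mmp10, Mmp12, Mmp13 and Mmp14) and 3 tissue inhibitors of metalloproteinases (Timp1, Timp2 and Timp3), 10 of the 36854 genes in the count table. They were found by their Ensembl identifiers. The set was selected on earlier readings of these data. Mmp13 in particular was chosen by its CPM in isotype tumours, where its response to radiation had been noted to differ between 2 kinds of tumour, so its values in isotype tumours are given as a description, with no test. RNA-seq was available for 48 sarcomas of mice of the 129/SvJae background, in 8 groups. The 32 primary tumours were induced in the calf muscle of p53 FL/FL mice aged 6 to 10 weeks, by an adenovirus that delivers Cre recombinase and by 300 µg of the carcinogen MCA. The 16 allografts grew in the same muscle of syngeneic mice after injection of 50000 cells with matrigel, and all of them came from 1 cell line. A difference between primary tumours and allografts therefore cannot be told apart from a trait of that line. The labels give no age for the allograft hosts and name no p53 deletion in them. At a volume of about 150 mm3 each mouse received 200 µg of muDX400, a murine antibody against the T cell receptor PD-1, or an isotype control, and then 0 or 20 Gy to the tumour-bearing hind limb. Tumours were taken 3 days later, with 4 tumours in each allograft group and 8 in each primary group, and the tumours of a group are named replicates 1 to 4 or 1 to 8.

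Matrix metalloproteinases are zinc-dependent enzymes, secreted or held at the cell surface, that cut collagens, proteoglycans, growth factor carriers and other proteins outside the cell. Most are made as inactive proforms in which a cysteine blocks the zinc, and they become active when that stretch is removed by other proteases, such as plasmin or another metalloproteinase. TIMPs bind the active site and block it, and the balance of both sets how much matrix is degraded when tumours invade, vessels sprout or injured muscle is remodelled. Transcripts of these genes come from tumour cells, fibroblasts, macrophages, neutrophils and osteoclasts. In RNA from whole tumours, fewer cells of a type and less RNA per cell cannot be told apart.

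By role, Mmp13 is a collagenase, Mmp3 and Mmp10 are stromelysins, Mmp12 is the macrophage elastase, Mmp2 and Mmp9 are gelatinases, and Mmp14 is a membrane-bound enzyme that activates the Mmp2 proform together with Timp2. In the GRCm38 assembly (GENCODE M21), Mmp13 (9:7272514-7283331), Mmp12 (9:7344381-7369499), Mmp3 (9:7445822-7455975) and Mmp10 (9:7502352-7510240) lie on the plus strand of chromosome 9. They are members of a cluster of 10 metalloproteinase genes that spans 427 kb, from 7272514 to 7699585. The other members are on separate chromosomes. These are Mmp2 (8:92827291-92853420), Mmp9 (2:164940780-164955850), Mmp14 (14:54431612-54445364), Timp1 (X:20870166-20874735) and Timp3 (10:86300372-86349506), all on the plus strand, and Timp2 (11:118301069-118355740) on the minus strand. Whether the authors counted by strand is not given in the sources used here, and 157 of the 7237 exonic bases of Mmp12 are shared with Mmp1b, and 1733 of the 8144 of Timp3 with Syn3, both on the opposite strand.

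The 4 members of the chromosome 9 cluster had the widest swings among the tumours, so the 100 bases before their starts are shown (RefSeq, GRCm38.p6). Capitals mark the AP-1 letters TGANTCA, the sequence bound by Fos and Jun proteins, and the TATA box letters TATAAA. The stretches are chr9:7272414-7272513, chr9:7445722-7445821, chr9:7502242-7502341 and, for the second of 2 starts of Mmp12, chr9:7347274-7347373, all on the plus strand.
Mmp13: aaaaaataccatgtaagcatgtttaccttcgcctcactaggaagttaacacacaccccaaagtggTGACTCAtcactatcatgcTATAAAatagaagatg
Mmp3: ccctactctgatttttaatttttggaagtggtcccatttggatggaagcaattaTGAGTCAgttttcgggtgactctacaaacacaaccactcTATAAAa
Mmp10: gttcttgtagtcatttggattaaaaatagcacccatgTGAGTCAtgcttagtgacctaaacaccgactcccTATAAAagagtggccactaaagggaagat
Mmp12: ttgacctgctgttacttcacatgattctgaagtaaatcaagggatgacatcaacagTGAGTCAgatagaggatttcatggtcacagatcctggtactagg
The AP-1 letters stand 35 to 29 bases before the start of Mmp13, 46 to 40 before Mmp3, 63 to 57 before Mmp10 and 44 to 38 before the second start of Mmp12. On both strands of the 250 bases before each start, the letters were found in 8 of the 10 genes of the cluster and in 0 of the 12 other metalloproteinase and TIMP genes with a promoter entry, among them Mmp14, Timp1, Timp2 and Timp3. Over all promoters the share was 7.82% of 27025 genes. TATAAA was found in 7 of the 10 cluster genes, in 1 of the 12 others and in 14.3% of all genes. The first start of Mmp12 has neither. No match is shown to be a site in use, and the reference strain is not the strain of these tumours. Mmp2 and Mmp9 had no promoter entry.

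The library total was 31.8 to 54.0 M counts (M, mega) per tumour, with a median of 41.2 M. Levels are given as counts-per-million (CPM) normalised by TMM, which scales libraries to a trimmed mean of their log ratios. Trp53 transcripts were counted in all tumours, at 20.2 to 60.7 CPM, and the reads of whole tumours do not show which cells they came from. The sarcoma label was read against collagen and fibroblast genes, of which 8 of 8 were counted in all tumours (summed level 4103 to 61149 CPM). Skeletal muscle genes, the tissue around the tumours, summed to between 13.2 and 80041 CPM, whereas keratinocyte genes summed to at most 9.99 CPM, with Krt5 at 0 in 39 of 48 tumours. In each allograft group replicate 3 stood apart by 2 of the 6 genes of a bone and cartilage list. Its Ibsp was 21.2 to 559 CPM against at most 1.64 CPM in the other 44 tumours, and Bglap was 5.0 to 71.2 CPM against at most 0.292. Of the other 4, Sp7 was 1.15 to 14.7 CPM against at most 1.197, and Col2a1 and Acan were as high in some primary tumours (up to 117.2 and 58.4 CPM). Col10a1 reached 26.5 CPM in allografts and 14.0 CPM in primary tumours. In the irradiated anti-PD-1 allografts Col2a1 and Col10a1 were at most 0.131 and 0.312 CPM. Several results are also given without these 4 allografts. The animal identifiers of the allografts began with the digit 5 in 4 of 4 isotype tumours at 0 Gy but 1 of 4 at 20 Gy, and Xist, the transcript of the inactive X chromosome, was above 10 CPM in 1 of 4 and 3 of 4 of them.

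Per kilobase of exon, Timp1 was the most abundant member, with a median over all tumours of 370.4 CPM per kb. Mmp2 followed at 219, Timp2 at 206, Mmp14 at 86.1, Mmp3 at 73.1, Mmp9 at 33.3, Timp3 at 18.8, Mmp10 at 12.5, Mmp13 at 5.90 and Mmp12 at 1.09 CPM per kb. The highest tumour exceeded the lowest 2183-fold for Mmp10, whose lowest tumour held 13 counts, 541-fold for Mmp3, 229-fold for Mmp13 and 118.6-fold for Mmp12. For Mmp9 the ratio was 65.0, for Timp3 26.1, for Mmp2 11.1, for Timp1 9.44, for Timp2 5.24 and for Mmp14 3.10. When the 8 groups were ordered by median for each member, the ranges of neighbouring groups overlapped in 70 of 70 cases, so no single step in these orders separates 2 groups.

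Mmp13, the collagenase that cuts fibrillar and cartilage collagen, had group medians of 32.5 to 368 CPM in allografts and 6.24 to 17.6 CPM in primary tumours. In unirradiated isotype allografts it stood at 41.8, 23.2, 44.6 and 16.9 CPM, and in isotype allografts given 20 Gy at 722, 140, 470 and 266 CPM. All 4 irradiated tumours were above all 4 unirradiated ones, and the log2 difference was 3.67 (SE 0.82), a 12.8-fold ratio. This value is a description, since it belongs to the choice of the gene. The identifiers of the irradiated tumours began with 4, 5, 4 and 4 in that order, and those of all unirradiated ones with 5. Dose and this digit cannot be fully told apart here. In the same tumours the summed osteoclast list ran from 135.1 to 241 CPM at 0 Gy and from 336 to 948 CPM at 20 Gy. Of its 4 genes tested 1 rose, where 5.14% of all genes were called, Acp5, an acid phosphatase (2.45, SE 0.56, edgeR adjusted p = 0.0205), and the part of these cells in the Mmp13 values was not tested. Among anti-PD-1 allografts the levels were 14.0, 61.7, 112.996 and 26.0 CPM at 0 Gy and 508, 40.2, 126.3 and 104.9 CPM at 20 Gy. Those groups overlapped, and 2 of the 4 irradiated tumours were above all unirradiated ones. The log2 difference of 1.84 (SE 0.76, n = 4 and 4) did not pass edgeR's quasi-likelihood test with Benjamini-Hochberg adjustment (adjusted p = 0.195).

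In primary tumours with the isotype antibody Mmp13 had overlapping ranges at both doses, from 3.16 to 31.3 CPM (median 11.6) at 0 Gy and from 8.47 to 31.6 CPM (median 10.9) at 20 Gy. The described log2 difference was 0.01 (SE 0.41), with a 95% interval of -0.83 to 0.86. With anti-PD-1 it was 3.30 to 14.7 CPM (median 6.24) at 0 Gy and 4.38 to 63.8 CPM (median 17.6) at 20 Gy. There 6 of the 8 irradiated tumours were above all 8 unirradiated ones. Mmp13 rose by 1.82 on the log2 scale (SE 0.43), a 3.54-fold ratio (edgeR adjusted p = 0.00849, n = 8 and 8). The call was kept without each of the 16 tumours in turn and with only these groups in the fit, where no isotype tumour enters the spread (1.83, adjusted p = 0.0288). Of the 17770 genes tested 7.92% were called in this comparison, and Mmp13 and Timp1 were the members called, 2 of 10. In these 16 tumours Ibsp was at most 1.13 CPM, and the cartilage genes Col2a1 and Acan reached 71.7 and 11.7 CPM at 0 Gy and 8.19 and 58.4 CPM at 20 Gy. The summed osteoclast list (5 of 5 genes detected) ran from 141.4 to 436 CPM at 0 Gy and from 147 to 2581 CPM at 20 Gy, and its part in the result was not tested.

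**Figure D1:**
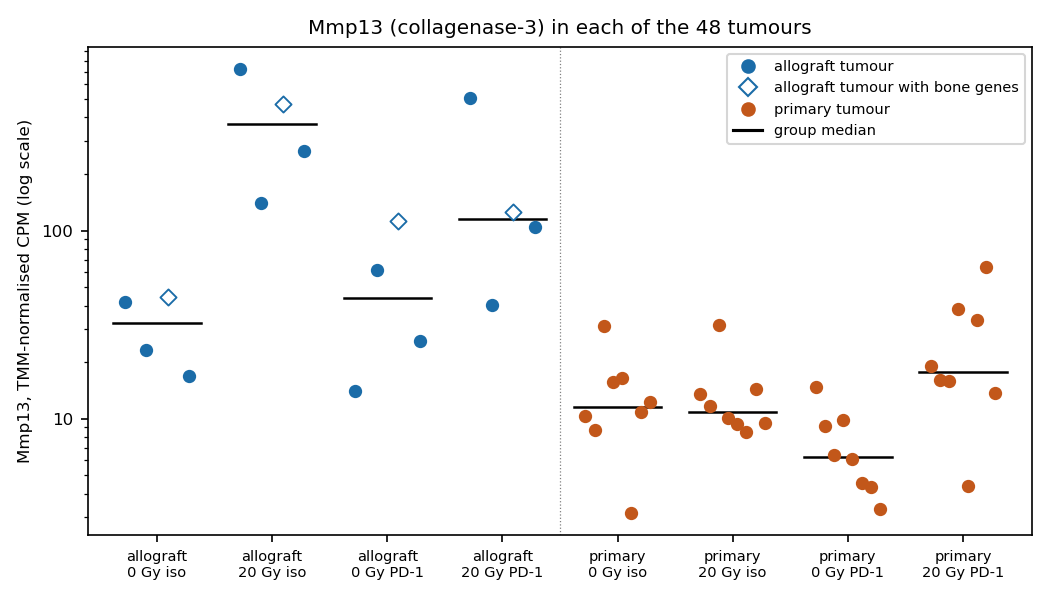
Mmp13 CPM (log axis) of each tumour in the 8 groups; the black line is the group median and open diamonds are the 4 allografts with bone genes. The 4 isotype allografts at 20 Gy sit between 140 and 722 CPM, above the 32 primary tumours, of which the highest is at 63.8 CPM.

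Whether the dose difference of Mmp13 depends on tumour kind was tested as a contrast of the anti-PD-1 groups, not those in which the difference had been noted. Isotype tumours entered that fit only through its estimate of the spread. The members were chosen with earlier results of these data known, so tests of Mmp13 in anti-PD-1 tumours are not fully independent of the choice. The primary minus allograft difference in dose effect was -0.05 on the log2 scale (SE 0.81, 95% interval -1.68 to 1.58, edgeR adjusted p = 0.997, 48 tumours in the fit). The same quantity described in isotype tumours was -3.66 (SE 0.84). The difference between both quantities was not tested. Without the 4 allografts with bone genes the anti-PD-1 value was -0.87 and did not pass (adjusted p = 0.99996). None of the 10 members was called in the anti-PD-1 interaction by edgeR, where 0% of 19327 genes were (922 genes at an unadjusted p under 0.05, 3 by DESeq2), and 1 member had an unadjusted p under 0.05. In the isotype interaction 0.00517% were called, 0 of the 9 members tested among them (2 at an unadjusted p under 0.05, beside 1914 of all genes). DESeq2 called 5 genes there and also 0 of these 9 members.

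The median of Mmp13 was lower in primary tumours than in allografts in all 4 settings, and 1 of the 2 anti-PD-1 comparisons, which alone were tested, passed. In unirradiated anti-PD-1 tumours it was lower by 7.25-fold (log2 difference -2.86, SE 0.49, edgeR adjusted p = 0.00514, n = 8 and 4), and 7 of 8 primary tumours were below all 4 allografts. Of 17455 genes 8.94% were called there, and Mmp13 alone of the 10 members was. Without the allograft with bone genes, which at 112.996 CPM was the highest of its group, the difference was -2.20 (adjusted p = 0.0249). Mmp13 also kept its call without each of the 12 tumours. In irradiated anti-PD-1 tumours the difference was -2.90 (SE 0.66) with 7 of 8 primary tumours below all allografts, and it did not pass (adjusted p = 0.101). That comparison called 1 of 17674 genes, 0.00566%, and 0 of 10 members by edgeR. Of the 10 members 4 had an unadjusted p under 0.05, as had 2965 of all genes tested. DESeq2 called 4 members there, Mmp9, Mmp10, Mmp13 and Timp2. The share of edgeR is no background for these 4. Over all genes DESeq2 called at most 1309, the highest count of the alternatives with all single tumours kept. For isotype tumours the described differences were -1.22 at 0 Gy, where the ranges overlapped, and -4.82 at 20 Gy, where 8 of 8 primary tumours were below all 4 allografts. The tumours with bone genes ranked first in Mmp13 in both unirradiated allograft groups and second in both irradiated ones. Without them the isotype dose difference in allografts was 3.79 and the anti-PD-1 one was 2.68 (adjusted p = 0.19).

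Mmp3, stromelysin-1, which cuts proteoglycans and activates other proforms, rose with dose in isotype allografts. At 0 Gy it was 161, 79.3, 76.7 and 75.3 CPM, and at 20 Gy 1776, 350, 224 and 729 CPM. All 4 irradiated tumours were above all 4 unirradiated ones. The log2 difference was 2.98 (SE 0.73), a 7.89-fold ratio (edgeR adjusted p = 0.0278). Of 17746 genes 5.14% were called, and Mmp3 was 1 of 9 members tested. The call rests on few tumours, since it was lost without any 1 of unirradiated replicates 1 to 4 or of irradiated replicates 1 and 4 (log2 difference 2.19 to 3.33, adjusted p 0.0502 to 0.107). Without the allografts with bone genes it was 3.19 (adjusted p = 0.0695). With the identifier digit as a covariate it was 1.77 (adjusted p = 0.235), with Xist 2.60 (adjusted p = 0.110), and with all 48 tumours in the fit 2.97 (adjusted p = 0.285).

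With anti-PD-1, Mmp3 in allografts was 40.0, 122.7, 67.0 and 130 CPM at 0 Gy and 1098, 110, 336 and 248 CPM at 20 Gy. Here 3 of 4 irradiated tumours were above all unirradiated ones, and the log2 difference of 2.32 (SE 0.71) did not pass (adjusted p = 0.0829). That comparison called 3.96% of 17746 genes and by edgeR 0 of 10 members. There 4 members (the 4 of the chromosome 9 cluster) had an unadjusted p under 0.05, as had 3458 of all genes tested. Mmp3 was called by DESeq2 (adjusted p = 0.00743) and by edgeR with the muscle score as a covariate (2.18, adjusted p = 0.0385). Primary tumours were far more scattered. Their isotype range was 8.02 to 292 CPM (median 65.5) at 0 Gy and 5.15 to 473 CPM (median 134.8) at 20 Gy, a log2 difference of 0.67 (SE 0.91, adjusted p = 0.655). With anti-PD-1 the range was 10.6 to 2784 CPM (median 89.4) at 0 Gy, where replicate 4 alone exceeded 198 CPM, and 76.3 to 837 CPM (median 251) at 20 Gy. The fitted difference of -0.41 (SE 0.91) has the opposite sign to the medians and did not pass (adjusted p = 0.838).

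Mmp10, stromelysin-2, has a substrate range close to that of Mmp3. In isotype allografts it was 96.2, 48.8, 27.7 and 28.9 CPM at 0 Gy and 644, 136.1, 88.6 and 234 CPM at 20 Gy. Of the irradiated tumours 3 were above all unirradiated ones, and the log2 difference was 2.46 (SE 0.79, adjusted p = 0.0901). In anti-PD-1 allografts the levels were 19.3, 54.1, 21.2 and 75.5 CPM at 0 Gy and 436, 31.3, 125.9 and 101.9 CPM at 20 Gy, a difference of 2.03 (SE 0.77, adjusted p = 0.159). In primary isotype tumours it was 0.602 to 124.7 CPM (median 18.6) at 0 Gy and 0.295 to 29.0 CPM (median 5.01) at 20 Gy. That log2 difference was -2.04 (SE 1.06, adjusted p = 0.199), of the opposite sign to the allografts. The primary minus allograft difference in dose effect was -4.51 (SE 1.68) and did not pass (adjusted p = 0.466).

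At 20 Gy with the isotype antibody, all 8 primary tumours were below all 4 allografts in Mmp10. The primary tumours were 34.0-fold lower, a log2 difference of -5.09 (SE 0.95, edgeR adjusted p = 0.0102, n = 8 and 4). Of 17624 genes 4.76% were called there, and Mmp10 was the only one of the 9 members tested. It kept the call without each of the 12 tumours, with log2 differences from -5.78 to -4.25. Without the allograft with bone genes it was at -5.38 (adjusted p = 0.0159). That allograft held the lowest Mmp10 of its group, 88.6 CPM. At 20 Gy with anti-PD-1 the primary range was 0.704 to 68.1 CPM and 5 of 8 primary tumours were below all allografts (log2 difference -3.09, SE 0.98, adjusted p = 0.172). At 0 Gy the differences were small beside their errors, -0.65 (SE 0.91) with the isotype antibody and -0.48 (SE 1.17) with anti-PD-1. The latter rests on 1 tumour. Without primary replicate 4, at 189 CPM against 21.9 in the next, it was -2.57 and edgeR called Mmp10 (adjusted p = 0.0318).

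Mmp12, the macrophage elastase, was 18.2, 9.05, 2.95 and 5.94 CPM in unirradiated and 85.8, 18.4, 5.29 and 38.1 CPM in irradiated isotype allografts. The respective levels with anti-PD-1 were 3.75, 6.61, 3.59 and 10.4 CPM, and 86.7, 6.84, 16.3 and 9.45 CPM. The fitted dose difference had the same sign in all 4 settings, and none passed in edgeR's fit as designed. It was 2.04 (SE 0.87, adjusted p = 0.226) in isotype allografts, 2.29 (SE 0.88, adjusted p = 0.163) in anti-PD-1 allografts, 1.75 (SE 0.68, adjusted p = 0.0811) in isotype primary tumours and 1.86 (SE 0.68, adjusted p = 0.0885) in anti-PD-1 primary tumours. Each had an unadjusted p under 0.05. Mmp12 passed in isotype primary tumours with Xist (1.90, adjusted p = 0.0199) or the muscle score (2.18, adjusted p = 0.0242) as a covariate and by DESeq2 (adjusted p = 0.0279). It also passed there without unirradiated replicate 4 (adjusted p = 0.0430) or irradiated replicate 2 (0.0495). In anti-PD-1 primary tumours DESeq2 called it (adjusted p = 0.0288). The primary medians were 4.0 and 8.97 CPM with the isotype antibody, and 5.52 and 10.1 CPM with anti-PD-1, at 0 and 20 Gy in turn.

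Of the macrophage list (8 of 8 genes detected in all tumours), Cd68 was called higher with dose by edgeR in each allograft setting, where 5.14% and 3.96% of all genes were called in either direction. Cd68, C1qa and Msr1 were called higher in isotype primary tumours, beside 14.5% of all genes, and Cd68 in anti-PD-1 primary tumours, beside 7.92%. The list's summed level ran from 1075 to 1664 CPM at 0 Gy and from 1938 to 2792 CPM at 20 Gy with the isotype antibody, and from 871 to 2194 CPM and 2023 to 3611 CPM with anti-PD-1. In isotype primary tumours it ran from 1236 to 2275 CPM at 0 Gy and from 1550 to 2752 CPM at 20 Gy. With anti-PD-1 the ranges were 1118 to 2206 CPM and 774 to 4013 CPM. Of the 3 general leukocyte genes Ptprc, Coro1a and Cd53, 3 rose with dose in isotype allografts and 3 in isotype primary tumours. With anti-PD-1, 2 of 3 rose in allografts (Ptprc and Cd53) and 1 of 3 in primary tumours (Cd53). The part of these cells in the differences of Mmp12, Mmp3, Mmp10 and Mmp13 was not tested.

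**Figure D2:**
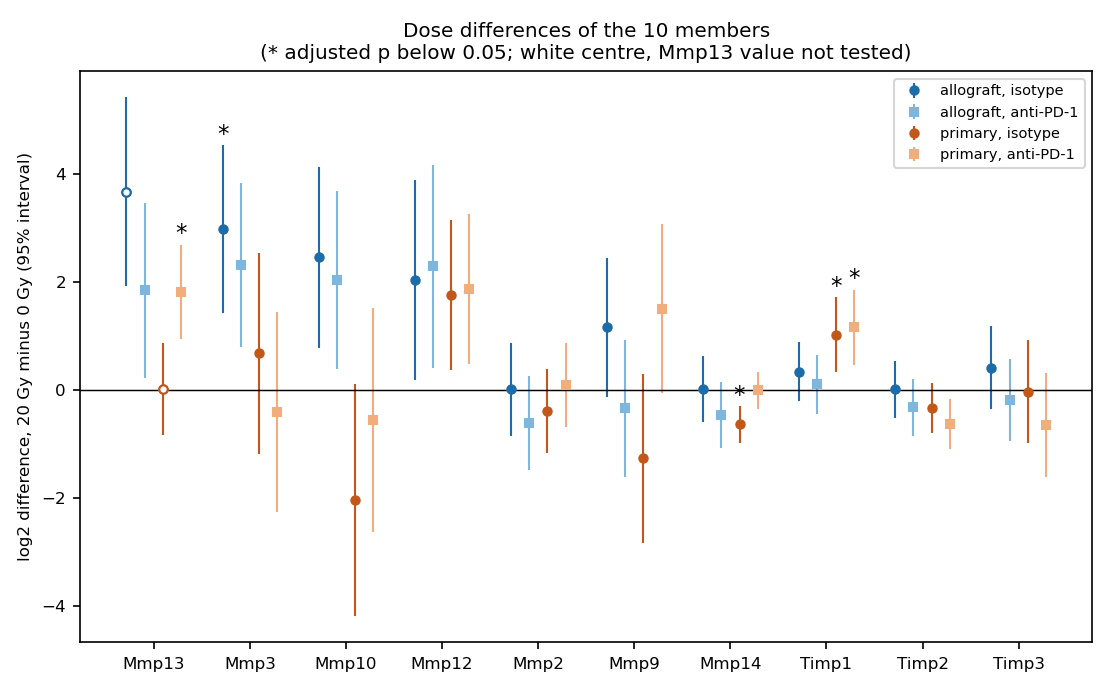
Log2 difference between 20 and 0 Gy for each of the 10 genes in the 4 settings of tumour kind and antibody; points are edgeR estimates, bars 95% intervals, stars mark an adjusted p below 0.05, and a white centre marks values of Mmp13 that were not tested. Stars stand at Mmp3 in isotype allografts, Mmp14 and Timp1 in isotype primary tumours, and Mmp13 and Timp1 in anti-PD-1 primary tumours.

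Among the gelatinases, which digest denatured collagen and basement membrane, Mmp2 showed no called difference. Its medians were 1012 and 1105 CPM in isotype allografts and 1080 and 548 CPM in anti-PD-1 allografts at 0 and 20 Gy. In primary tumours they were 616 and 570 CPM with the isotype antibody and 835 and 928 CPM with anti-PD-1. The dose differences lay between -0.61 and 0.09 on the log2 scale, with SEs of 0.38 to 0.41.

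Mmp9 varied widely among primary tumours. The allografts ranged from 32.4 to 391 CPM. Primary isotype tumours ranged from 39.7 to 2003 CPM (median 215) at 0 Gy and from 44.8 to 538 CPM (median 111.01) at 20 Gy. With anti-PD-1 the ranges were 43.1 to 474 CPM (median 204) and 37.1 to 2103 CPM (median 397). The dose difference in primary tumours was -1.27 (SE 0.77, adjusted p = 0.276) with the isotype antibody and 1.51 (SE 0.77, adjusted p = 0.235) with anti-PD-1. The anti-PD-1 minus isotype difference of these dose effects, 2.78 (SE 1.09), had an unadjusted p of 0.0159 and an adjusted p of 0.971.

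The highest Mmp9 values went with osteoclast genes. Primary 20 Gy anti-PD-1 replicate 5 held 2103 CPM of Mmp9, 1301 of Ctsk (cathepsin K) and 1183 of Acp5 (the acid phosphatase of osteoclasts). Primary 0 Gy isotype replicate 1 held 2003, 994 and 1358 CPM, and primary 20 Gy anti-PD-1 replicate 1 held 1327, 1112 and 1086 CPM. These were the 3 highest of all 48 tumours in each of these genes. Ibsp and Bglap, which mark bone-forming cells, were at most 1.13 and 0.206 CPM in all primary tumours. In allografts the tumour with bone genes had the highest Mmp9 of its group in 3 of 4 groups (123.6, 279 and 391 CPM) and the lowest, 57.3 CPM, in the irradiated anti-PD-1 group. Without these 4 tumours the isotype dose difference of Mmp9 in allografts was 0.69 in place of 1.16, and neither passed (adjusted p = 0.443 and 0.335). The anti-PD-1 one turned from -0.34 (adjusted p = 0.805) to 0.63 (adjusted p = 0.551). The dose by antibody interaction of Mmp9 in allografts went from -1.50 to -0.05, neither of them called.

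Mmp14, the membrane-bound activator of Mmp2, was the steadiest member. In isotype primary tumours it ran from 461 to 807 CPM (median 695) at 0 Gy and from 275 to 625 CPM (median 417) at 20 Gy, and 6 of the 8 irradiated tumours were below all 8 unirradiated ones. Mmp14 fell by 0.64 on the log2 scale (SE 0.17), a 1.56-fold decrease (edgeR adjusted p = 0.00938, n = 8 and 8). It kept this call without each of the 16 tumours, and missed it when only these groups entered the fit (-0.59, adjusted p = 0.0520). Of 17770 genes 14.5% were called in this comparison and 2 of 9 members tested, Mmp14 and Timp1. With anti-PD-1 the primary ranges were 329 to 667 CPM (median 561) and 352 to 632 CPM (median 554), a log2 difference of -0.01 (SE 0.17, adjusted p = 0.985). The difference between both dose effects, 0.63 (SE 0.24), had an unadjusted p of 0.0117 but an adjusted p of 0.971. Allografts ranged from 260.5 to 718 CPM and their dose differences of 0.01 and -0.47 did not pass. The fibroblast list, 8 genes, summed to 12435 to 34980 CPM in unirradiated and 7770 to 36288 CPM in irradiated isotype primary tumours, with 1 of 8 genes (Fap) called lower. Its part in the fall of Mmp14 was not tested.

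Timp1, an inhibitor made by many cell types in inflamed and wounded tissue, rose with dose in primary tumours under both antibodies. With the isotype antibody it was 170 to 665 CPM (median 201) at 0 Gy and 391 to 976 CPM (median 524) at 20 Gy. The unirradiated replicate 4, at 665 CPM, stood above all but 1 irradiated tumour, and the other 7 were at most 362 CPM, below all 8 irradiated ones. Timp1 rose by 1.02 on the log2 scale (SE 0.34), a 2.03-fold ratio (edgeR adjusted p = 0.0419). With anti-PD-1 the ranges were 147 to 367 CPM (median 252) and 142.996 to 1350 CPM (median 445), with 5 of 8 irradiated tumours above and 1 below all unirradiated ones. The rise was 1.16 (SE 0.34), a 2.23-fold ratio (edgeR adjusted p = 0.0345). Both calls were close to the threshold. The first was lost without any 1 of unirradiated replicates 1, 2, 3, 6 and 8 or irradiated replicates 1, 3, 5 and 7 (adjusted p 0.0507 to 0.0948), and without the filter on low counts (0.0579). The second was lost without any 1 of unirradiated replicates 2, 3, 6, 7 and 8 or irradiated replicates 5 and 6 (adjusted p 0.0536 to 0.0925). It was also lost without the filter (0.0542), with the identifier digit as a covariate (0.0583) and with only these groups in the fit (0.0774). In allografts Timp1 stayed between 177 and 466 CPM, with dose differences of 0.34 (SE 0.25) and 0.10 (SE 0.25). The primary minus allograft differences in dose effect were 0.69 (adjusted p = 0.627) and 1.07 (adjusted p = 0.991), so the dose effect is not shown to differ between tumour kinds.

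Timp2, which both inhibits metalloproteinases and carries the Mmp2 proform to Mmp14, had higher medians in primary tumours than in allografts, and the comparisons as designed made no call. Allografts ranged from 381 to 851 CPM. Unirradiated primary tumours ranged from 801 to 1998 CPM (median 1087) with the isotype antibody and from 529 to 1953 CPM (median 1362) with anti-PD-1, and in each 7 of 8 were above all 4 allografts. The log2 differences were 0.83 (SE 0.25, adjusted p = 0.0531) and 1.07 (SE 0.32, adjusted p = 0.0577). The first comparison called 10% of 17357 genes and 0 of 9 members by edgeR (2 at an unadjusted p under 0.05, beside 4526 of all genes). DESeq2 called Timp2 in both antibody settings. So did edgeR with all 48 tumours in 1 fit (adjusted p = 0.0391 and 0.0127). Timp2 was also called by edgeR without unirradiated isotype primary replicate 4 or 8 (adjusted p = 0.0449 and 0.0480), and without unirradiated anti-PD-1 primary replicate 6 (0.0138). Of the 8 fibroblast genes 4 were higher in unirradiated isotype primary tumours than in allografts (Col1a2, Pdgfrb, Lum and Fap), with summed levels of 12435 to 34980 CPM against 8046 to 11652 CPM. With anti-PD-1 1 of 8 was higher (Col1a2), beside 8.94% of all genes called, and the part of these cells in the Timp2 values was not tested. At 20 Gy the differences were 0.54 (SE 0.24, adjusted p = 0.226) and 0.73 (SE 0.25, adjusted p = 0.183). The dose difference in primary tumours was -0.34 (SE 0.23, adjusted p = 0.332) with the isotype antibody and -0.63 (SE 0.23, adjusted p = 0.0857) with anti-PD-1, and the latter passed with all 48 tumours in 1 fit (-0.64, adjusted p = 0.0428) and without unirradiated replicate 6 (-0.75, adjusted p = 0.0328).

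Timp3, the inhibitor that stays bound to matrix and also blocks several ADAM and ADAMTS proteases, was 54.6 to 174 CPM in allografts. In primary tumours it reached 856 CPM in unirradiated isotype replicate 8, against 290.0 CPM in the next tumour of that group. At 20 Gy with the isotype antibody it was 140 to 335 CPM in primary tumours, and 7 of 8 were above all allografts (log2 difference 1.04, SE 0.30, adjusted p = 0.0646). This difference passed without the allograft with bone genes, which at 174 CPM was the highest of its group (1.34, adjusted p = 0.0389). The dose differences lay between -0.64 and 0.41 and none passed.

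Anti-PD-1 against isotype gave no called gene in either tumour kind at either dose, and neither did the interactions of dose and antibody (edgeR, 0% of 17746 and 17770 genes). The number of genes at an unadjusted p under 0.05 was 299 and 682 in allografts at 0 and 20 Gy, 412 and 1443 in primary tumours, and 269 and 756 for the interactions of both kinds in the same order. Among the members, the count at that level was 0 of 9 in both allograft comparisons. In unirradiated primary tumours it was 1, Mmp3 (1.97, SE 0.94, adjusted p = 0.9998), with replicate 4 at 2784 CPM. In irradiated primary tumours it was 2, Mmp9 (1.93, SE 0.78, adjusted p = 0.596) and Mmp14 (0.36, SE 0.17, adjusted p = 0.603). DESeq2 called 3 and 5 genes in the primary comparisons and 0 in the allograft ones, none of them one of the 9 members tested. For Mmp13 the described differences between antibodies were -0.89 (SE 0.42) at 0 Gy and 0.91 (SE 0.42) at 20 Gy in primary tumours, and 0.77 (SE 0.75) and -1.06 (SE 0.75) in allografts.

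The wider family was read from a list of 17 further metalloproteinase and TIMP genes, of which 13 or 14 passed the filter on low counts. In isotype allografts 2 of 13 rose with dose and 0 fell, beside 5.14% of all genes called, the interstitial collagenase Mmp1a (3.03, adjusted p = 0.0183) and its paralog Mmp1b (2.18, adjusted p = 0.0470), both in the chromosome 9 cluster, so that reads may be split between them. Mmp1a was at most 0.692 CPM at 0 Gy and 1.84 to 7.4 CPM at 20 Gy in these tumours. The list's median log2 difference was 0.10, against -0.00 over all genes tested. In anti-PD-1 allografts Mmp27 rose (2.19, adjusted p = 0.0406), 1 of 13 beside 3.96% of all genes called.

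In isotype primary tumours 3 of 13 further family genes rose with dose and 2 fell, where 14.5% of all genes were called in either direction. Mmp8, the collagenase of neutrophils, rose by 3.36 on the log2 scale (adjusted p = 0.00633) from 0.113 to 1.23 CPM at 0 Gy to 1.2 to 19.0 CPM at 20 Gy. Mmp27 (2.12, adjusted p = 0.00215) and the leukocyte membrane enzyme Mmp25 (1.45, adjusted p = 0.0287) rose as well. The membrane-type enzyme Mmp16 fell by 1.2 (adjusted p = 0.00940), and the fitted level of Mmp1a fell by 3.76 (adjusted p = 0.0396). Mmp1a medians were 0.481 and 0.231 CPM, and its highest unirradiated tumour was at 35.3 CPM. With anti-PD-1, Mmp8 (4.92, adjusted p = 0.000952) and Mmp27 (1.74, adjusted p = 0.0174) rose and Mmp16 fell by 1.41 (adjusted p = 0.00601), 2 of 13 and 1 of 13 beside 7.92% of all genes called. The list medians were -0.10 and 0.19, against -0.02 and 0.02 over all genes. Of the neutrophil list, which contains Mmp8, 7 of 8 genes were tested in primary tumours. With the isotype antibody 2 of 7 rose (Csf3r and Mmp8), and with anti-PD-1 3 of 7 (Csf3r, Retnlg and Mmp8). The 8 genes summed to 14.1 to 81.0 CPM in unirradiated and 32.8 to 791 CPM in irradiated isotype primary tumours, and to 11.1 to 391 CPM and 38.7 to 892 CPM with anti-PD-1, with overlapping ranges in both settings. Ly6g was at 0 in 5 of 48 tumours and Ngp in 6, and the part of neutrophils in the result was not tested.

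Between tumour kinds, the unirradiated isotype comparison called 3 of these 13 genes, beside 10% of all genes. Mmp17 was higher in primary tumours (1.91), and Mmp8 (-2.66) and Mmp25 (-1.71) were lower. There 3 of the 7 neutrophil genes tested were lower too (Csf3r, Retnlg and Mmp8 itself), with summed levels of 67.3 to 283 CPM in allografts and 14.1 to 81.0 CPM in primary tumours. The unirradiated anti-PD-1 comparison called 4, beside 8.94% of all genes, Mmp17 (1.68) and Mmp16 (1.2) higher, and Mmp8 (-3.06) and Mmp25 (-1.60) lower. Of 8 neutrophil genes 2 were lower there (Mmp8 and Ngp), and the part of neutrophils was not tested. Ngp was 164 CPM in the allograft with bone genes and 0.34 to 3.58 CPM in the other allografts of that group. At 20 Gy with the isotype antibody Mmp1a (-3.40) and Mmp1b (-3.41), of the same chromosome 9 cluster as Mmp10 and Mmp13, were lower in primary tumours and 0 of 13 were higher, beside 4.76% of all genes called. In irradiated anti-PD-1 tumours 0 of 13 were called by edgeR, beside 0.00566% of all genes called. An unadjusted p under 0.05 was found for 4 of the 13 and for 2965 of all genes.

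Regulators of these enzymes were read from 18 genes of the plasminogen system, metalloproteinase inhibitors and partners, and related ADAM proteases. Plau, the urokinase that makes the proform-activating protease plasmin, rose with dose in isotype allografts (1.62, edgeR adjusted p = 0.0197), 1 of 18 beside 5.14% of all genes, with a list median of 0.17 against -0.00 over all genes. In isotype primary tumours 0 rose and 1 fell, the sheddase gene Adam10 (-0.41, adjusted p = 0.0356), 1 of 18 beside 14.5% of all genes. With anti-PD-1 the aggrecanase gene Adamts5 rose in primary tumours (1.37, adjusted p = 0.0491), 1 of 18 beside 7.92% of all genes. In anti-PD-1 allografts edgeR called 0 of 18, beside 3.96% of all genes, with 2 at an unadjusted p under 0.05, as were 3458 of all genes. At 20 Gy with the isotype antibody 3 of 18 were lower in primary tumours than in allografts, beside 4.76% of all genes called in either direction. They were Plau (-1.43, adjusted p = 0.00306), its receptor Plaur (-1.10, adjusted p = 0.00753) and Thbs1 (-1.84, adjusted p = 0.0214), in the same comparison in which Mmp10 was lower. At 0 Gy the tissue plasminogen activator Plat was higher in primary tumours (0.85 with the isotype antibody, 1.03 with anti-PD-1) and Plaur lower (-0.81 and -0.87). In irradiated anti-PD-1 tumours edgeR called 0 of 18, beside 0.00566% of all genes, with 4 at an unadjusted p under 0.05, as were 2965 of all genes.

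Cytokines, receptors and transcription factors linked to the induction of metalloproteinases formed a list of 16. It includes Il1rn, which is an antagonist and not an inducer, and the counts and medians below contain it. In isotype allografts 3 rose with dose and 0 fell, beside 5.14% of all genes called, namely the cytokine Tnf (2.00, adjusted p = 0.0426), the interleukin-1 antagonist Il1rn (1.47, adjusted p = 0.0433) and Il1a (3.20, adjusted p = 0.0449), with a list median of 0.49 against -0.00. In anti-PD-1 allografts edgeR called 0 of 16, beside 3.96% of all genes, with 4 at an unadjusted p under 0.05, as were 3458 of all genes. In isotype primary tumours 5 rose, beside 14.5% of all genes called in either direction, Il1rn (3.09, adjusted p = 1.95e-06), Tnf (2.35, adjusted p = 0.00013), Il1a (3.00, adjusted p = 0.00454), Osm (1.61, adjusted p = 0.0103) and Il6 (2.54, adjusted p = 0.0166). The transcription factor gene Ets1 fell by 0.60 (adjusted p = 0.0189), and the list median was 0.55 against -0.02. In anti-PD-1 primary tumours 6 rose and 0 fell, beside 7.92% of all genes called. They were Il1rn (2.60, adjusted p = 4.8e-05), Il1a (3.61, adjusted p = 0.00281), Il6 (3.34, adjusted p = 0.0059), Osm (1.75, adjusted p = 0.0113), its receptor gene Osmr (0.87, adjusted p = 0.0153) and Tnf (1.39, adjusted p = 0.0178), with a median of 0.70 against 0.02. Between tumour kinds at 0 Gy, Il1rn was lower in primary tumours with the isotype antibody (-2.18, adjusted p = 0.00158) and with anti-PD-1 (-2.12, adjusted p = 0.0140). Tnf was lower (-1.52, adjusted p = 0.0312) and Jun higher (0.72, adjusted p = 0.0271) with the isotype antibody, and Osmr was higher with anti-PD-1 (0.67, adjusted p = 0.0423). At 20 Gy edgeR called 0 of 16 with either antibody, beside 4.76% of all genes with the isotype antibody and 0.00566% with anti-PD-1. In each, 4 of the 16 had an unadjusted p under 0.05, as had 3508 and 2965 of all genes in turn. The AP-1 genes of the list, Fos, Fosl1, Fosl2, Jun and Junb, were called in none of the dose comparisons. Il1a and Tnf were scarce, at most 5.0 and 26.8 CPM in any tumour. The leukocyte genes that rose beside them are given above, and their part was not tested.

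The members were also compared tumour by tumour, as deviations of log2 CPM from the group mean over all 48 tumours. These correlations describe tumours that share libraries' depth and cell mixture, and no test is attached. The 6 pairs within the chromosome 9 cluster had Pearson r from 0.39 to 0.73 (median 0.52), and the other 39 pairs from -0.39 to 0.59 (median 0.15). Mmp3 and Mmp10 were the closest pair, with r = 0.73 over all tumours, 0.97 among the 16 allografts and 0.70 among the 32 primary ones. For Mmp3 and Mmp12 r was 0.92 in allografts and 0.35 in primary tumours, and for Mmp10 and Mmp12 0.93 and 0.53. Mmp2, Mmp14 and Timp2 also went together in allografts, with r = 0.91 for Mmp2 and Mmp14, 0.94 for Mmp14 and Timp2 and 0.89 for Mmp2 and Timp2. In primary tumours these were 0.49, 0.36 and 0.49.

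**Figure D3:**
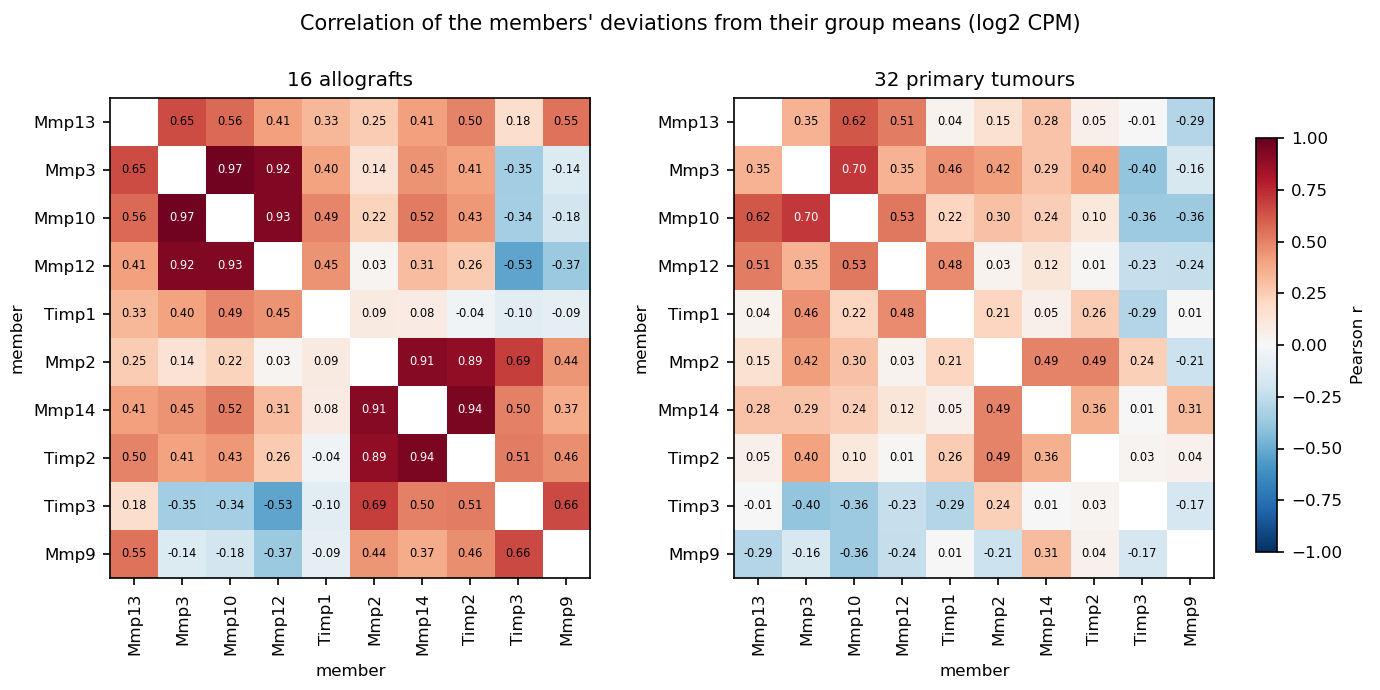
Pearson r of each pair of the 10 genes, from deviations of log2 CPM from the group mean, shown for 16 allografts (left) and 32 primary tumours (right). In allografts the pair of Mmp3 and Mmp10 is at 0.97 and that of Mmp14 and Timp2 at 0.94, against 0.70 and 0.36 in primary tumours.

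Single tumours carried the cluster genes together. Replicate 1 was the highest of its group for Mmp3, Mmp10, Mmp12 and Mmp13 in both irradiated allograft groups, and replicate 7 was so in irradiated anti-PD-1 primary tumours. In 4 of the other 5 groups the same tumour was highest for Mmp3, Mmp10 and Mmp12 and another for Mmp13. In the 2 unirradiated allograft groups among them, that other tumour was the one with bone genes. In irradiated isotype primary tumours no tumour was highest for more than 2 of the 4 genes. The identifiers of replicate 1 in both irradiated allograft groups began with the digit 4. In the irradiated anti-PD-1 allografts the other identifiers began with 5, and the part of the digit in these values was not tested.

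The genes most like each member were taken from 13375 genes by the same correlation over 48 tumours. Mmp10 was the closest gene to Mmp13 (r = 0.56, followed by Gdf11 and Cfb) and Mmp3 the closest to Mmp10 (r = 0.73, followed by Odaph and Sgip1). For Mmp3 it was Pdpn (r = 0.78), the gene of podoplanin, a surface protein of lymphatic endothelium and activated fibroblasts, followed by Gnb5 and the prostaglandin E synthase gene Ptges. For Mmp12 it was Pgf (r = 0.70), a growth factor of the VEGF family, then Gpihbp1 and Spata7. Mmp9 was closest to Cyp2s1 (r = 0.85), Slc9b2 and Ctsk (r = 0.84). The collagen chaperone gene Fkbp10 was among the 3 closest to Mmp14, after Snx33 (r = 0.80) and before Ggn. Mmp2 was closest to Slit3 (r = 0.79), Pros1 and Sipa1l2, and Timp2 to Nbl1 (r = 0.80), Mxra8 and the metalloproteinase inhibitor gene Reck. For Timp1 the 3 were Traf3ip2 (r = 0.76), Ugdh and Il1rl1, and for Timp3 Adgrg6 (r = 0.77), Egr2 and Notch1. For Timp3 with Adgrg6 and Egr2, r was 0.81 and 0.77 in primary tumours but 0.40 and 0.16 in allografts.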

How the data were processed

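Poly(A) RNA of 48 tumours was sequenced from strand-specific libraries, from RNA with an integrity number above 7, per the labels. The authors deposited raw whole-number counts per Ensembl gene in 1 table of a first run. The submitters' processing notes name Trimmomatic 0.36, STAR, HTSeq and mm10, and the annotation and strand setting are not given in the sources used here. Symbols and positions came from GENCODE M21, which named 36796 of 36854 genes.

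The labels gave the groups. Replicate numbers follow the order of deposition and pair nothing. Nothing says which animals shared a litter or a day, so p-values measure the spread between these tumours. The allografts repeat 1 cell line, so p-values between tumour kinds do not measure the spread between lines. Counts were filtered with filterByExpr by group, scaled by TMM and tested with edgeR 4.0.16 (quasi-likelihood, Benjamini-Hochberg over all genes tested, called at an adjusted p below 0.05). The 4 groups of a tumour kind shared 1 fit, tumour kinds were compared in fits of the groups compared, and the interactions of kind and dose used all 48 tumours. This gave 16 comparisons. Mmp13 was tested in the 5 contrasts without isotype groups, although isotype tumours entered the spread of 3 of those fits, and 9 members were tested elsewhere. Log2 CPM used a prior count of 2. DESeq2 1.42.0, another scaling, no filter, other sets of tumours, covariates and leaving out single tumours were alternatives. Leaving out the allografts with Ibsp above 10 CPM was added after seeing the data. The fit was tested on simulated counts with 200 changed genes.

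The members and lists were chosen with earlier results of these data known. All members are named, further family genes where called, up to 6 called regulators and inducers per comparison by p, and the 3 genes of highest correlation with each member among those with a mean of at least 1 CPM. The common relative spread between tumours, as estimated by edgeR, was 0.375 in allografts and 0.50 in primary tumours. Counting error was not computed beside it, and it weighs most at low counts. The number of macrophage list genes called is not reported here.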

Additional observations from a re-analysis of the deposited data

Results flagged for a closer look

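In 16 of the 80 sets of 4 or 8 values (a gene in a group) the highest tumour was farther from the next than Dixon's 95% criterion allows, and in 0 the lowest was. Chance gives about 1 in 20 of such sets where values follow a normal distribution, which CPM values need not do, so the 16 are not set against that rate. Several of the high values fell in the same tumours. Primary 0 Gy anti-PD-1 replicate 4 was at 2784 CPM of Mmp3 (next 198) and 189 CPM of Mmp10 (next 21.9). Primary 0 Gy isotype replicate 4 was at 124.7 CPM of Mmp10 (next 48.9) and 665 CPM of Timp1 (next 362). Primary 0 Gy isotype replicate 7 was at 1706 CPM of Mmp2 (next 877) and 1998 CPM of Timp2 (next 1326). Primary 20 Gy isotype replicate 3 was at 31.6 CPM of Mmp13 (next 14.4) and 976 CPM of Timp1 (next 636).

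The others were single. For Mmp3, allograft 0 Gy isotype replicate 1 was at 161 CPM (next 79.3). For Mmp9, primary 0 Gy isotype replicate 1 was at 2003 CPM (next 358) and primary 20 Gy isotype replicate 4 at 538 CPM (next 237). Mmp12 stood at 86.7 CPM in allograft 20 Gy anti-PD-1 replicate 1 (next 16.3) and at 84.9 CPM in primary 20 Gy anti-PD-1 replicate 7 (next 32.6). Mmp13 stood at 31.3 CPM in primary 0 Gy isotype replicate 3 (next 16.4). Timp3 stood at 158 CPM in allograft 20 Gy anti-PD-1 replicate 4 (next 90.1) and at 856 CPM in primary 0 Gy isotype replicate 8 (next 290.0).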

How the results depend on the processing

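No paired analysis was possible because the labels number no replicates. No difference of a member changed sign where it was called, under any alternative run. The number of members called moved as follows, and the cause was not tested. For dose in isotype allografts it went from 1 to 0 with all 48 tumours in the fit, with the identifier digit or Xist as a covariate, and without the allografts with bone genes, to 2 with the muscle score or DESeq2 (Mmp3 and Mmp10), and from 0 to 1 over single tumours left out. In anti-PD-1 allografts it went from 0 to 1 with the muscle score or DESeq2 (Mmp3). For dose in isotype primary tumours it went from 2 to 1 without the filter (Mmp14) and with only the groups compared (Timp1), to 3 with Xist, the muscle score or DESeq2 (Mmp12 too), and 1 to 3 over tumours left out. With anti-PD-1 it went from 2 to 1 without the filter, with the digit and with only the groups compared (Mmp13), to 3 with all 48 tumours (Timp2 too) or DESeq2 (Mmp12 too), and 1 to 2 over tumours left out. Between kinds at 0 Gy with the isotype antibody, 0 became 1 with all 48 tumours or DESeq2 (Timp2) and with the muscle score (Mmp12), and 0 to 1 over tumours left out. At 20 Gy, 1 became 2 with the muscle score and without the allografts with bone genes (Mmp10 and Timp3) and 3 with DESeq2 (Timp1 too), and 1 to 2 over tumours left out. With anti-PD-1 at 0 Gy, 1 became 2 with all 48 tumours or DESeq2 (Mmp13 and Timp2), and 1 to 2 over tumours left out. At 20 Gy, 0 became 1 with all 48 tumours (Mmp13) and 4 with DESeq2. The count of all genes called for dose was 912 in isotype allografts (196 with the identifier digit, 1530 with DESeq2, 294 to 1415 over tumours left out) and 703 in anti-PD-1 allografts (1 with only the groups compared, 1664 with DESeq2, 184 to 1275). In primary tumours it was 2575 with the isotype antibody (2084 without the filter, 3532 with all 48 tumours, 1706 to 3091) and 1407 with anti-PD-1 (822 with only the groups compared, 2188 with DESeq2, 896 to 1928). Between kinds it was 1738 (1199 with Xist, 2868 with DESeq2, 732 to 2187) and 839 (447 without the allografts with bone genes, 1875 with DESeq2, 260 to 1150) with the isotype antibody at 0 and 20 Gy. With anti-PD-1 it was 1560 (641 without the allografts with bone genes, 2756 with DESeq2, 634 to 1921) and 1 (0 without those allografts, 1309 with all 48 tumours, 0 to 239). All member counts for the antibody and the interactions stayed at 0 under the alternatives run. Mean levels moved by less than 1 SD in 160 of 160 cases. Under Spearman's rank correlation 1 of 10 members kept its 3 most similar genes. Depth limits mainly Mmp10 and Mmp12 in the tumours below 1 CPM, 5 and 2 of 48.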
